A study of Rattus norvegicus with 43 samples.

Results

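Day 14 was compared with day 7 in A7r5 cells, a smooth muscle line from the aorta of an embryonic rat, kept in medium low in folic acid. The members were chosen by medium and day alone: 9 of the 43 arrays, of which 5 were from day 14 (replicates 1, 2, 3, 5 and 6) and 4 from day 7 (replicates 1, 2, 5 and 6). All 9 came from custom-made DMEM with 2.5 ng/ml folic acid, which the labels call deficient. Sufficient medium (10 ng/ml) and excess medium (100 ng/ml) are used below only to ask where the change with time differed: sufficient medium has 5 arrays of day 14 and 5 of day 7, and excess medium has 5 of day 14 and 4 of day 7. Deficient day 21, with 5 arrays, is given beside the change in places. The deficient day 7 arrays had themselves been in deficient medium for 7 days, so the comparison shows time in that medium and not deficiency against sufficiency. All groups are 1 cell line with no genetic change named in the labels, and since no label says that replicates came from different cultures, the p-values reflect the spread among these arrays, part of which may be technical.

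Folate carries one-carbon units that cells use to make thymidylate and purines for DNA and to remethylate homocysteine to methionine, the source of the methyl groups of DNA and histones. Cultured vascular smooth muscle cells can shift between a dividing state that makes matrix and a quiescent state rich in contractile proteins. Dividing cells switch on the genes of DNA replication first and those of mitosis later in the cycle, and both sets are shut down when cells leave the cycle.

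Expression was read with Affymetrix rat 3' arrays, on which each gene is represented by a set of short probes near the 3' end of its transcript. Values are log2 GCRMA expression values, so a difference of 1 is a 2-fold change, and errors of changes are standard errors (SE) of the model while errors of levels are SDs. In these bulk RNA samples, fewer cells expressing a gene and less of its RNA per cell cannot be told apart. Of the smooth muscle contractile markers, 31 of 34 on the array lay above a log2 value of 4 on each day, where values near 4, the limit of the filter and close to the array medians of 3.66 to 3.72, are called background. Of 9 fibroblast markers, 4 lay above 4 on each day, with a mean over the list of 6.69 to 6.75 in the day 14 arrays, against 6.69 to 6.73 in the day 7 arrays. Markers of the other cell types looked at were mostly at background, with 2 of 11 endothelial, 1 of 11 macrophage, 2 of 9 epithelial, 1 of 11 adipocyte and 2 of 9 neuronal and glial markers above 4 on each day.

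Replicates 1 and 5 of day 14 stood apart from the other 7 arrays. They correlated at 0.9968 with each other and at 0.9907 to 0.9924 with replicates 2, 3 and 6, which correlated at 0.9969 to 0.9974 among themselves, while the day 7 pairs lay between 0.9956 and 0.9970. The same pattern marked arrays of other media, and a score was therefore computed for each array from the serials 46, 47 and 49, which are sufficient and excess arrays: the mean of the 200 genes highest in them minus the mean of the 200 lowest, each set against the rest of its own group. The score was 0.14 and 0.39 in day 14 replicates 1 and 5, and -1.17, -1.12 and -1.06 in replicates 2, 3 and 6, against -1.26, -1.27, -1.18 and -1.29 in the day 7 arrays. Results that rest on these 2 arrays are given again from a fit over the 18 arrays with a score below -0.8, called the low-score arrays here, which hold day 14 replicates 2, 3 and 6 and all 4 day 7 arrays. The difference between the 3' and 5' control probe sets of beta-actin, which rises as RNA is degraded, was 1.63 ± 0.09 on day 14 and 1.90 ± 0.10 on day 7 (SD, n = 5 and 4). It differed between the days by -0.268 (exact permutation test, two-sided, p = 0.0159, the smallest p that 5 against 4 arrays allow), and its part in the results was not tested beyond a fit with this difference as a covariate. The serial numbers in the titles run from 1 to 5 for day 7 and are 16, 17, 18, 20 and 48 for day 14. No label says what these numbers mean, and some recur among the arrays of other groups. If they mark array order, that order and day cannot be told apart.

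**Figure D1:**
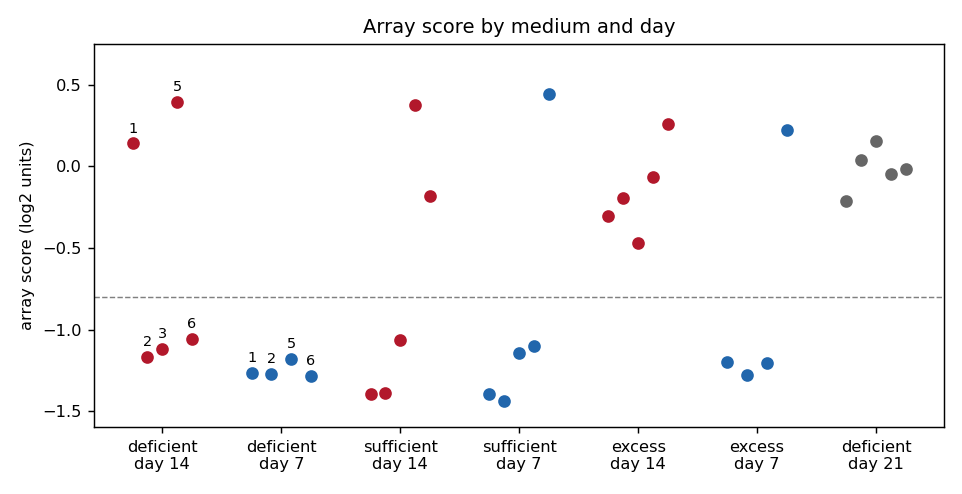
Score of each array (log2 units) by medium and day; each point is 1 array, numbers are the replicate numbers of the deficient arrays of days 14 and 7, and the dashed line marks -0.8. Day 14 replicates 1 and 5 lie at 0.14 and 0.39, the 4 day 7 arrays lie between -1.29 and -1.18, and all 5 arrays of excess day 14 and of deficient day 21 lie above the line.

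Between the days, 4143 of 9093 genes (45.6%) passed an adjusted p of 0.05 (limma, Benjamini-Hochberg), of which 1761 (19.4% of the genes tested) were higher and 2382 (26.2%) lower on day 14. The median change of all genes was -0.032. Centring each array on its median moved this to 0.068 and the split to 2656 higher and 1700 lower, and quantile normalization gave 2206 higher and 1963 lower, so which direction held more genes depended on the scaling. Changes of at least 2-fold were more one-sided: 394 genes (4.33%) had them, 97 higher (1.07%) and 297 lower (3.27%). In 3476 genes (38.2%) the 5 values of day 14 and the 4 of day 7 did not overlap. From the low-score arrays, 4137 genes passed, 1662 higher and 2475 lower. Of the 4143 genes, 3546 (85.6% of them, and 39% of all genes tested) passed there too, and all 4143 kept their sign. The low-score arrays are a part of the arrays of the full fit, so much of this overlap follows from the shared arrays.

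**Figure D2:**
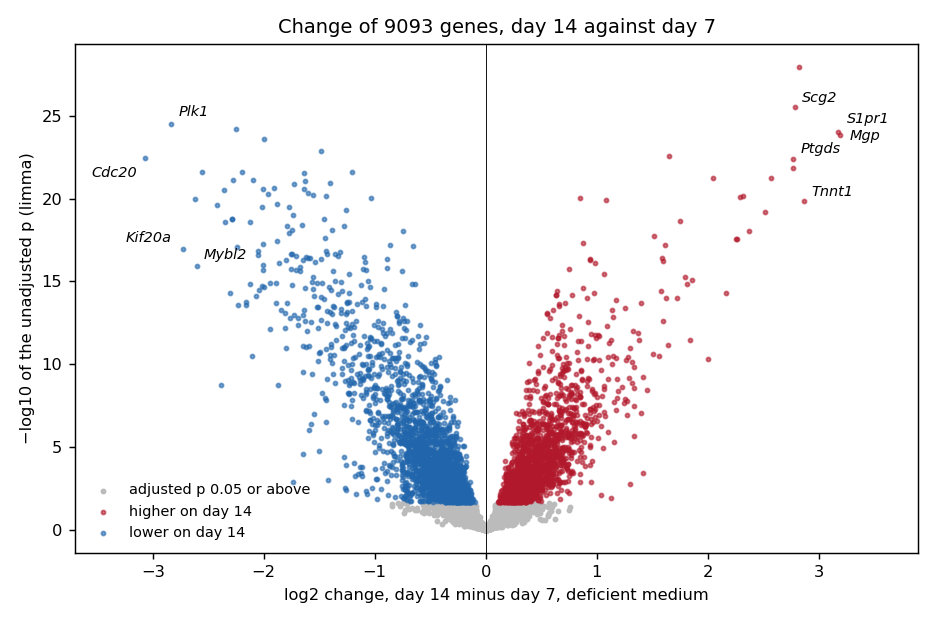
Change of each gene between day 14 and day 7 in deficient medium (x axis, log2) against the -log10 of its unadjusted p (y axis); each point is 1 of 9093 genes, red for genes higher and blue for genes lower on day 14 at an adjusted p under 0.05, grey for the others. The blue cloud extends further down, with 297 genes lower and 97 higher by at least 2-fold.

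Genes of mitosis fell on day 14, and they held most of the deepest changes. Of 29 tested genes of the spindle checkpoint, kinetochore and centromere, 27 were lower and 0 higher, with a median change of -1.43. All 26 tested mitotic kinases, cyclins and regulators were lower (median -1.95), as were all 31 tested motors, condensins and cytokinesis proteins (median -1.75), where 26.2% of all genes were lower. Their promoters are shown first, because these genes moved together and share letters near their starts. The promoters come from RefSeq (GRCr8, 250 bases before to 50 after the gene's start, read along the gene's strand) and are in lower case, with 3 motifs in capitals on either strand: TTTGAA or TTTAAA, the core of the cell cycle homology region (CHR) found in promoters of mitotic genes, CCAAT, and TTTNNCGC, an E2F-type site found in promoters of replication genes. Motifs may overlap each other.
Cdc20, chr5:137255750-137256049, minus strand: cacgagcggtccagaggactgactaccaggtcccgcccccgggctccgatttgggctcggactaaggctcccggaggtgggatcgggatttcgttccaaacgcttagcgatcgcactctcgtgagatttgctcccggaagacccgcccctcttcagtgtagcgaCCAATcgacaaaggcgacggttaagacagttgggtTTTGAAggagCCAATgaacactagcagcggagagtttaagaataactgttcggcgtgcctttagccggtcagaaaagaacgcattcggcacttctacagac
Plk1, chr1:186147408-186147707, plus strand: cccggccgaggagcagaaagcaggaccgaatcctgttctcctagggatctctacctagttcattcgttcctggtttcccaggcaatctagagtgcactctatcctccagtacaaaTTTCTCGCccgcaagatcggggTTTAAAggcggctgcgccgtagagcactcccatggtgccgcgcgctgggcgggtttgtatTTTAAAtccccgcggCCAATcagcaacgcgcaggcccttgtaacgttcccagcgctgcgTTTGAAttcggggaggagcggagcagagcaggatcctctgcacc
Ccnb2, chr8:79981609-79981908, minus strand: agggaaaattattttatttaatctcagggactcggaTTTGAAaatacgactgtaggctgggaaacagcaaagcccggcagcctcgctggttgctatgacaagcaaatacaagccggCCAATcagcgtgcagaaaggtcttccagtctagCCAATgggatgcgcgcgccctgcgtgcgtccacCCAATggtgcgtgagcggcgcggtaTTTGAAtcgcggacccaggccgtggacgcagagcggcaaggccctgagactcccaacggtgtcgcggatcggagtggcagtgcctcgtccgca
Mcm7, chr12:22163129-22163428, minus strand: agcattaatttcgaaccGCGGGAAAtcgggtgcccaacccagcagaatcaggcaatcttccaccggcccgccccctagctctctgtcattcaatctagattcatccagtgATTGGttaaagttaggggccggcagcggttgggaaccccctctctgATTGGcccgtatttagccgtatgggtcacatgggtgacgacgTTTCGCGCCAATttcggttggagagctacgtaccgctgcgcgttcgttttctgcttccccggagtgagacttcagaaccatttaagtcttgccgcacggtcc
Pole, chr12:52053613-52053912, minus strand: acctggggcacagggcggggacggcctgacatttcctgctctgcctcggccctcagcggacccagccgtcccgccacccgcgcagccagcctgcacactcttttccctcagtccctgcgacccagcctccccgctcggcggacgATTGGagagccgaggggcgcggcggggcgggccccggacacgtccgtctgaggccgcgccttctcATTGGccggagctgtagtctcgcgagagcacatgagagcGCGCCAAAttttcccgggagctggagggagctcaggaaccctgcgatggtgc
The first 3 belong to genes of mitosis and the last 2 to genes of replication, picked from the named genes after the matches were seen. Cdc20 holds 1 CHR and 2 CCAAT matches, Plk1 3 CHR matches, 1 CCAAT and 1 E2F-type match, and Ccnb2 2 CHR and 3 CCAAT matches. Mcm7 holds 0 CHR, 3 CCAAT and 2 E2F-type matches, and Pole 0 CHR, 2 CCAAT and 1 E2F-type match.

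Over all genes, RefSeq gave a promoter for 72 of the 86 tested members of the 3 mitosis lists and for 7694 of the 9093 genes tested. A CHR core stood in 52 of the 72 (72.2%), against 18.5% of the promoters of all genes tested. CCAAT stood in 68.1% of them, against 38.7%, and both motifs in 52.8%, against 7.51%. The E2F-type letters were in 13.9% of the mitosis promoters, against 9.19% overall. Among 48 promoters of the replication list, the order of CHR and E2F-type letters was the other way round. The E2F-type letters stood in 43.8% and a CHR core in 16.7% of them. CCAAT was not reversed: it stood in 56.2% of the replication promoters, also above the 38.7% of all genes tested. Both CHR and CCAAT stood in 6.25% of the replication promoters, against 7.51%. These shares describe the letters in this window, and no factor's binding was measured.

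Cdc20, which activates the anaphase-promoting complex, fell most (probe set 1370294_a_at). Its values were 5.45, 5.52, 5.64, 5.67 and 5.20 on day 14, against 8.68, 8.30, 8.72 and 8.58 on day 7, so the groups lay far apart, and it fell by 3.07 ± 0.14 (adjusted p = 3.0e-20), an 8.42-fold drop. Plk1, a kinase of mitotic entry (probe set 1370297_at), had 5.15, 5.04, 4.97, 5.02 and 4.98 on day 14, against 7.68, 7.80, 7.99 and 7.99 on day 7. It fell by 2.84 ± 0.11 (adjusted p = 9.1e-22), and the 5 values of day 14 lay close together, near background. Ccnb2, a cyclin of mitotic entry, had 7.86, 7.45, 7.46, 7.86 and 7.14 on day 14, against 9.92, 9.90, 9.93 and 9.89 on day 7. It fell by 2.36 ± 0.12, and day 14 replicates 1 and 5 were the highest of their day, while the 4 values of day 7 hardly differed.

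Other regulators fell in the same way. Mybl2, a transcription factor of dividing cells, had 5.92, 6.43, 6.78, 5.78 and 6.20 on day 14, against 8.71, 8.86, 8.81 and 8.92 on day 7, and here day 14 replicates 1 and 5 were the lowest. Aurka, a centrosome kinase, fell by 2.55 ± 0.12, and Pttg1, the securin that guards sister chromatids, fell by 2.62 ± 0.14. Kif20a, a motor of cytokinesis, fell by 2.73 ± 0.18, Cenpe, a kinetochore motor, fell by 2.42 ± 0.13, and Aspm, a spindle pole protein, fell by 2.35 ± 0.14. Iqgap3, a scaffold protein, fell by 2.39 ± 0.31 to a mean of 4.06 on day 14, which is at background. Mki67, the protein read by the Ki-67 antibody, fell by 1.41 ± 0.07 but remained at 10.88 ± 0.12 on day 14, against 12.29 ± 0.03 on day 7, and Bub1, a checkpoint kinase, fell by 1.49 ± 0.07. Only 2 tested members of the spindle list did not pass: Zwint (-0.11 ± 0.06, adjusted p = 0.13), a kinetochore protein, and Skp1 (0.14 ± 0.07, adjusted p = 0.092), a ubiquitin ligase subunit used throughout the cycle. From the low-score arrays 28 of 29 spindle genes and all members of the other 2 lists were lower, with medians of -1.45, -1.95 and -1.84.

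DNA replication and S phase genes fell less deeply but as widely. Of 55 tested, 54 were lower, against 26.2% of all genes, and 0 higher (median -1.13). At least a 2-fold fall was seen in 36 of them, against 3.27% of all genes. Mcm7, a subunit of the replicative helicase, had 9.54, 9.59, 9.80, 9.32 and 9.42 on day 14, against 11.07, 11.21, 11.17 and 11.23 on day 7. It fell by 1.64 ± 0.09, and every day 14 value lay well below every day 7 value. Pole, the leading-strand polymerase, fell by 2.05 ± 0.14, Tk1, which salvages thymidine, fell by 1.74 ± 0.11, and Rrm1, the large subunit of ribonucleotide reductase, fell by 1.03 ± 0.06. Slbp, which binds histone mRNA, was the member that did not pass (0.04 ± 0.18, adjusted p = 0.87), and its day 7 values ran from 10.73 to 11.50. Of 28 DNA damage and repair genes, 27 were lower and 0 higher (median -0.72). Fancd2, of the crosslink repair pathway, fell by 1.66 ± 0.10, Rad54l, of recombination, fell by 1.55 ± 0.12, and Chek1, a checkpoint kinase of S phase, fell by 1.31 ± 0.10. These repair genes are also active in S phase.

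Enzymes of DNA and histone methylation were mixed, with 11 of 28 lower and 4 higher, where 26.2% of all genes were lower and 19.4% higher. Ezh2, the methyltransferase of the Polycomb complex in dividing cells, had 8.81, 8.83, 9.07, 8.89 and 8.92 on day 14, against 10.63, 10.55, 10.68 and 10.68 on day 7 and fell by 1.73 ± 0.09. Its relative Ezh1, found in cells that do not divide, rose by 0.79 ± 0.15 (adjusted p = 3.1e-05). Dnmt1, which copies DNA methylation after replication, fell by 1.24 ± 0.15, with 6.93, 7.05, 7.36, 6.74 and 6.60 on day 14, against 8.07, 8.27, 8.25 and 8.10 on day 7. Kdm1a, a histone demethylase, fell by 0.40 ± 0.09. The pair of Ezh genes thus changed in opposite directions, and neither pair of groups overlapped.

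**Figure D3:**
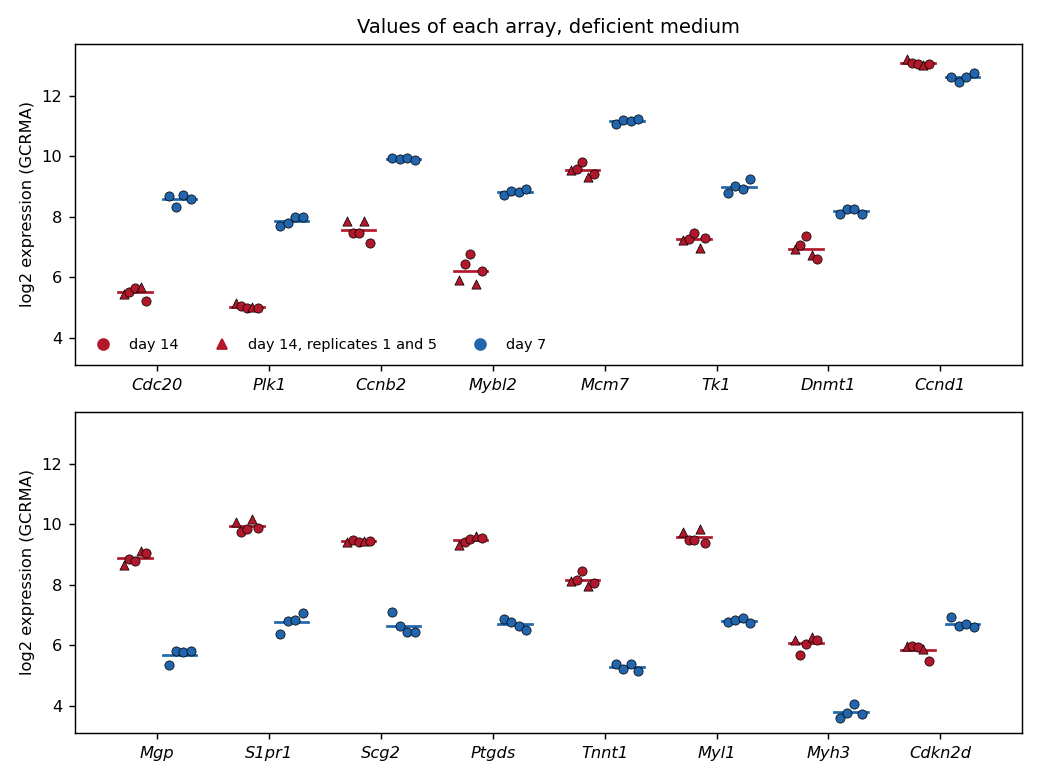
Log2 expression of named genes in each of the 9 deficient arrays, day 14 in red to the left of day 7 in blue; bars are group means and triangles are day 14 replicates 1 and 5. Most genes drawn were named by a rule that asks for no overlap between the days, so the lack of overlap in them was set by that choice. Over all genes tested, 38.2% did not overlap. In Ccnd1, which changed least of those drawn, the 5 red points sit at 13.01 to 13.22, above 12.43 to 12.76.

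Cyclin-dependent kinase inhibitors did not rise together. Of 24 tested genes of cell cycle exit (inhibitors, D cyclins and quiescence genes), 10 were higher (19.4% over all genes) and 6 lower (26.2%). Cdkn2c fell by 1.39 ± 0.12 and Cdkn2d fell by 0.86 ± 0.08, both inhibitors of the D cyclin kinases, with 5.98, 5.98, 5.95, 5.86 and 5.48 on day 14, against 6.95, 6.63, 6.69 and 6.59 on day 7 for Cdkn2d. Cdkn1b, the inhibitor p27, did not pass (-0.13 ± 0.06, adjusted p = 0.098) at 11.30 ± 0.11 on day 14, against 11.43 ± 0.09 on day 7, and it passed as lower from the low-score arrays (-0.20). Ccnd1, cyclin D1, had 13.22, 13.07, 13.04, 13.01 and 13.04 on day 14, against 12.60, 12.43, 12.60 and 12.76 on day 7, so it rose by 0.48 ± 0.07 while the mitotic cyclins fell. Ccng2, a cyclin of non-dividing cells, rose by 0.45 ± 0.07, Klf9, a growth-restraining factor, rose by 0.66 ± 0.10, and Klf2 fell by 1.61 ± 0.15. Among 15 p53 targets, 5 were higher and 3 lower: Mdm2, the ligase that restrains p53, rose by 0.57 ± 0.12, Fas, a death receptor, rose by 0.47 ± 0.12, Ccng1 rose by 0.26 ± 0.05, and Epha2, an ephrin receptor, fell by 0.88 ± 0.12. Gadd45a, a stress-induced gene of the same list, had a change of 0.07 ± 0.15 (adjusted p = 0.75).

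The strongest rise was that of Mgp, matrix Gla protein, an inhibitor of vascular calcification (probe set 1367568_a_at). Its values were 8.65, 8.85, 8.77, 9.12 and 9.03 on day 14, against 5.35, 5.80, 5.79 and 5.82 on day 7, a rise of 3.19 ± 0.13 (adjusted p = 2.1e-21), or 9.16-fold, with 1 low array on day 7. S1pr1, a receptor for sphingosine phosphate (probe set 1371840_at), had 10.06, 9.75, 9.84, 10.18 and 9.88 on day 14, against 6.36, 6.79, 6.84 and 7.07 on day 7. It rose by 3.18 ± 0.13, or 9.04-fold, and day 14 replicates 1 and 5 were the highest of the 9 arrays. Scg2, a secretory granule protein, had 9.41, 9.49, 9.41, 9.44 and 9.43 on day 14, against 7.09, 6.62, 6.45 and 6.45 on day 7, so its day 14 arrays hardly differed and it rose by 2.78 ± 0.10. Ptgds, a prostaglandin D synthase, rose by 2.77 ± 0.13, Gsta4, a glutathione transferase that clears lipid aldehydes, rose by 2.32 ± 0.12, and C10h16orf89 rose by 2.52 ± 0.14. Of the 10 largest rises named by rule, the other 4 were muscle genes, described next.

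Of 33 tested genes of skeletal and cardiac muscle, 22 were higher and 4 lower (median 0.52), against 19.4% and 26.2% of all genes. Of the 33, 10 rose at least 2-fold, where 1.07% of all genes did. The list has 59 genes on the array, of which 28 had a mean above 4 on day 14 and 26 on day 7, so many stayed at background. A gene could pass the filter through its day 14 arrays alone. Tnnt1, the troponin T of slow skeletal muscle, had 8.13, 8.15, 8.44, 7.95 and 8.05 on day 14, against 5.39, 5.21, 5.37 and 5.14 on day 7. It rose by 2.87 ± 0.16 (adjusted p = 3.6e-18). Myl4 rose by 2.83 ± 0.09 and Myl1 rose by 2.77 ± 0.13, both light chains of striated muscle myosin, and Myom2, of the sarcomere's M band, rose by 2.57 ± 0.13. Myl1 had 9.74, 9.46, 9.47, 9.85 and 9.37 on day 14, against 6.77, 6.85, 6.89 and 6.74 on day 7, with day 14 replicates 1 and 5 the highest of the 9 arrays. Myh3, the embryonic myosin heavy chain, rose by 2.29 ± 0.12, with a day 7 level at background, and Tnnc2, the fast troponin C, rose by 1.09 ± 0.06 at 11.92 ± 0.06 on day 14, against 10.84 ± 0.06 on day 7.

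Not all members followed. Myod1, which starts the skeletal programme, had 3.69, 3.25, 3.20, 3.53 and 3.15 on day 14, against 4.71, 3.83, 4.22 and 3.72 on day 7, below or near background, and it fell by 0.76 ± 0.18 (-0.51 with no call when only replicates 1 and 5 stood for day 14). Xirp1, of intercalated discs, fell by 0.90 ± 0.23 (-0.52 from the low-score arrays, where it passed, and the same size with no call when only replicates 1 and 5 of day 14 were left out of the fit). Myh1, a fast heavy chain and the most abundant member, did not pass (0.21 ± 0.15, adjusted p = 0.25): its values were 11.82, 12.39, 12.53, 11.77 and 12.52 on day 14, against 12.03, 11.90, 12.02 and 12.01 on day 7. Day 14 replicates 1 and 5 were below all day 7 arrays and the other 3 above them, and from the low-score arrays Myh1 rose by 0.49. The mean over the list's 59 genes on the array was 5.40 to 5.44 in the day 14 arrays, against 4.94 to 4.98 in the day 7 arrays, so these ranges did not overlap, with or without replicates 1 and 5.

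Of 32 smooth muscle contractile genes, 13 were higher and 4 lower (median 0.12), where 19.4% of all genes were higher and 26.2% lower. Pln, phospholamban, which holds back the calcium pump of the sarcoplasmic reticulum, had 9.78, 9.73, 9.61, 10.16 and 9.96 on day 14, against 8.12, 7.92, 7.94 and 8.17 on day 7 and rose by 1.81 ± 0.14. Itga8, an integrin chain of contractile smooth muscle, rose by 1.58 ± 0.13, Myh11, the smooth muscle myosin heavy chain, rose by 1.13 ± 0.11, and Mylk, myosin light chain kinase, rose by 0.97 ± 0.08. Myh11 was still at a moderate level, with 6.58 ± 0.16 on day 14, against 5.45 ± 0.24 on day 7. The most abundant contractile genes did not pass: Acta2, smooth muscle actin, had a change of -0.25 ± 0.18 and Tagln, transgelin, of 0.09 ± 0.05. Acta2 had 13.65, 14.39, 14.41, 13.63 and 14.47 on day 14, against 14.33, 14.34, 14.38 and 14.40 on day 7, and only day 14 replicates 1 and 5 lay apart. Csrp2, a LIM protein of the contractile apparatus, fell by 0.88 ± 0.15. Smtn, smoothelin, fell by 0.76 ± 0.28 (adjusted p = 0.022), with 7.71, 8.91, 8.85, 7.94 and 8.88 on day 14, against 9.12, 9.19, 9.33 and 9.24 on day 7. Replicates 1 and 5 were the lowest by far, and Smtn no longer passed without either of them (-0.57 without replicate 1, -0.63 without replicate 5) or without day 7 replicate 5 (-0.72), while from the low-score arrays Smtn fell by 0.34. Its call was also lost with the mean of its probe sets (-0.588) and with the beta-actin difference as a covariate (-0.625). Mrtfa, a cofactor of the serum response factor, fell by 0.63 ± 0.16 (-0.40 from the low-score arrays, where it passed, and the same size with no call when only replicates 1 and 5 were left out of the fit).

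**Figure D4:**
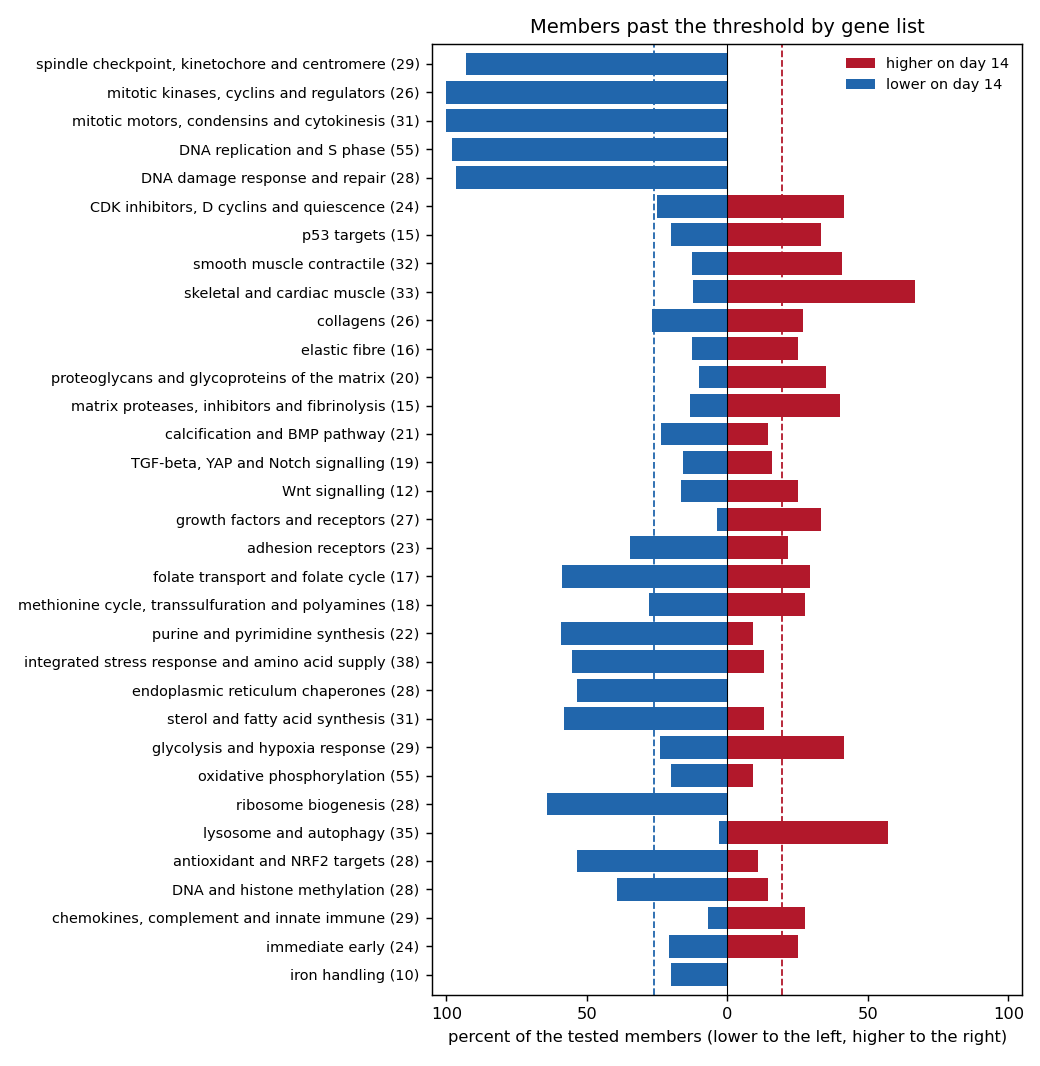
Percent of the tested members of each gene list past an adjusted p of 0.05, lower on day 14 to the left in blue and higher to the right in red, with the number of tested members in parentheses; dashed lines are the shares of all 9093 genes, 26.2% lower and 19.4% higher. The lists of mitosis, replication and repair fill most of the left side, with 27 of 29, 26 of 26 and 31 of 31 in the mitosis lists, and the list of skeletal and cardiac muscle reaches furthest on the right, with 22 of 33.

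Extracellular matrix genes split. Of 26 collagens and collagen enzymes, 7 were higher and 7 lower, near the shares of all genes (19.4% and 26.2%). Col11a1, a minor fibrillar chain, rose by 1.02 ± 0.16, Col6a3, of beaded filaments, rose by 0.87 ± 0.20, and Col14a1, a fibril-associated chain, fell by 1.26 ± 0.13 to below background. The main fibrillar chains did not pass: Col1a2 had a change of -0.11 ± 0.07, with the opposite sign in its other probe set, and Col1a1 of -0.38 ± 0.18. Col1a1 had 13.43, 14.16, 14.11, 13.35 and 14.16 on day 14, against 14.08, 14.22, 14.26 and 14.31 on day 7, with replicates 1 and 5 low, and its change was -0.07 from the low-score arrays. Among 16 elastic fibre genes 4 were higher and 2 lower. Eln, elastin, had 7.86, 9.69, 9.54, 8.26 and 9.41 on day 14, against 8.30, 7.76, 7.63 and 7.96 on day 7 and rose by 1.03 ± 0.37 (adjusted p = 0.021). Replicates 1 and 5 overlapped with day 7 while replicates 2, 3 and 6 did not. Eln no longer passed without day 14 replicate 2 (0.85), 3 (0.89) or 6 (0.92), or without day 7 replicate 2 (0.98) or 5 (0.94), and from the low-score arrays the rise was 1.63. Ltbp3, which anchors latent TGF-beta, rose by 0.67 ± 0.10, and Emilin1, of the elastic fibre surface, rose by 0.65 ± 0.14.

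Of 20 matrix proteoglycans and glycoproteins, 7 were higher and 2 lower, where 19.4% of all genes were higher and 26.2% lower. Postn, periostin, had 14.23, 14.20, 14.19, 14.21 and 14.23 on day 14, against 13.35, 13.32, 13.41 and 13.38 on day 7 and rose by 0.85 ± 0.04 at a level close to the top of the array's range. Fmod, a proteoglycan that steers fibril assembly, rose by 0.41 ± 0.13 (0.65 from the low-score arrays, and 0.07 with no call when only replicates 1 and 5 stood for day 14). Tgfbi, an adhesive matrix protein, fell by 0.80 ± 0.12, and Fn1, fibronectin, did not pass (-0.09 ± 0.09, adjusted p = 0.42). Of 15 proteases, inhibitors and fibrinolysis genes, 6 were higher and 2 lower. Serpine2, an inhibitor of thrombin and plasminogen activators, had 11.30, 11.16, 11.01, 11.48 and 11.14 on day 14, against 9.96, 9.95, 9.96 and 9.98 on day 7 and rose by 1.26 ± 0.11. Serpinf1, which encodes PEDF, rose by 1.02 ± 0.10, Plaur, the urokinase receptor, fell by 0.62 ± 0.14, and F3, tissue factor, had a change of 0.04 ± 0.11 (adjusted p = 0.78).

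Adhesion receptors were also mixed, with 5 of 23 higher and 8 lower, near the shares of all genes (19.4% and 26.2%). Itga1, a collagen-binding integrin chain, rose by 1.40 ± 0.21, Itgav, of fibronectin and vitronectin receptors, rose by 0.67 ± 0.10, and Sdc2, a heparan sulfate proteoglycan, rose by 0.64 ± 0.05. Cdh3, P-cadherin, fell by 1.00 ± 0.14. Itga3, a laminin-binding chain, fell by 1.12 ± 0.30 (-0.65 from the low-score arrays, where it passed, and the same size with no call when only replicates 1 and 5 were left out of the fit), and Ncam1 fell by 0.76 ± 0.23, a call that was lost there (adjusted p = 0.062). Of 21 genes of calcification and the BMP pathway, 3 were higher and 5 lower, also near those shares, with Mgp among those higher. Fst, follistatin, which binds activins, fell by 0.56 ± 0.10, Atoh8 fell by 0.52 ± 0.12, and Slc20a1, a phosphate carrier, fell by 0.52 ± 0.08. Id2, a BMP target, had a change of -0.16 ± 0.16 and Spp1, osteopontin, of 0.17 ± 0.10, and neither passed.

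Folate enzymes were mostly lower on day 14, with the same medium on both days. Of 17 tested genes of folate transport and the folate cycle, 10 were lower, against 26.2% of all genes, and 5 higher, with a median of -0.36. Mthfd1, the cytosolic enzyme that interconverts one-carbon folates, had 9.21, 9.09, 8.96, 9.25 and 8.99 on day 14, against 9.84, 9.94, 9.90 and 9.91 on day 7 and fell by 0.80 ± 0.07 (adjusted p = 5.5e-12). The mitochondrial enzymes fell with it: Shmt2, which takes the carbon from serine, fell by 1.02 ± 0.14, Mthfd2 fell by 0.93 ± 0.15, and Mthfd1l, which releases formate, fell by 1.18 ± 0.16. Shmt2 had 8.27, 8.80, 8.76, 8.11 and 8.54 on day 14, against 9.49, 9.60, 9.39 and 9.57 on day 7, and here replicates 1 and 5 were the lowest. Aldh1l1, which oxidizes one-carbon units to carbon dioxide, rose by 0.96 ± 0.14 from a low level, and Folr1, a folate receptor, had 4.34, 4.30, 4.25, 4.17 and 4.03 on day 14, against 3.86, 3.76, 3.71 and 3.57 on day 7, around background on both days, and rose by 0.49 ± 0.12. From the low-score arrays the counts were 4 higher and 10 lower.

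Nucleotide synthesis followed the same direction: of 22 purine and pyrimidine genes 13 were lower and 2 higher (median -0.30), where 26.2% of all genes were lower and 19.4% higher. Dctpp1, which removes modified dCTP, fell by 1.44 ± 0.15, Cad, the first enzyme of pyrimidine synthesis, fell by 1.05 ± 0.17, Umps, the last, fell by 0.78 ± 0.07, and Gmps, of guanine nucleotide synthesis, fell by 0.50 ± 0.06. With the mean of its probe sets Gmps had a change of -0.27 and no call. Cad had 7.82, 8.53, 8.44, 7.77 and 8.36 on day 14, against 9.01, 9.44, 9.26 and 9.22 on day 7, again with replicates 1 and 5 the lowest, and the change was -0.79 from the low-score arrays. The methionine cycle, transsulfuration and polyamine list split evenly, with 5 of 18 higher and 5 lower. Srm, spermidine synthase, fell by 1.05 ± 0.13, and Sat1, which marks polyamines for export, rose by 0.69 ± 0.07. Ahcy, which clears S-adenosylhomocysteine, fell by 0.62 ± 0.11, and Cth, of transsulfuration, rose by 0.57 ± 0.13.

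Genes of the integrated stress response and amino acid supply were more often lower than higher, with 21 of 38 lower and 5 higher (median -0.30), where 26.2% of all genes were lower and 19.4% higher. Psat1, of serine synthesis, had 11.92, 11.76, 11.74, 11.95 and 11.68 on day 14, against 12.53, 12.58, 12.52 and 12.58 on day 7 and fell by 0.74 ± 0.07, and Slc7a1, a carrier of cationic amino acids, fell by 0.89 ± 0.09. Atf4, the transcription factor of this response, did not pass (-0.09 ± 0.07, adjusted p = 0.32). Ddit4, an inhibitor of mTORC1, rose by 1.11 ± 0.11, Ddit3, the factor CHOP, rose by 0.51 ± 0.11, and Nupr1 rose by 0.32 ± 0.06, so these members moved against the majority. Trib3, a pseudokinase, was just outside the threshold (-0.33 ± 0.14, adjusted p = 0.051) although its 9 values did not overlap. Endoplasmic reticulum chaperones showed 15 of 28 lower and 0 higher: Creld2 fell by 1.79 ± 0.11, Sdf2l1 fell by 1.48 ± 0.10, Hsp90b1 fell by 0.60 ± 0.07 and Hspa5, the chaperone BiP, fell by 0.45 ± 0.05.

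Of 31 sterol and fatty acid synthesis genes, 18 were lower and 4 higher (median -0.27), where 26.2% of all genes were lower and 19.4% higher. Idi1, of isoprenoid synthesis, had 6.24, 6.54, 6.43, 6.74 and 6.30 on day 14, against 8.38, 8.19, 8.21 and 7.98 on day 7 and fell by 1.74 ± 0.10 (adjusted p = 1.9e-17). Sqle, squalene epoxidase, fell by 1.19 ± 0.13, Insig1, a brake on sterol synthesis, fell by 0.89 ± 0.09, and Cyp51, a demethylase of the pathway, fell by 0.61 ± 0.06. Abca1, which exports cholesterol, rose by 0.60 ± 0.15. Of 28 antioxidant and NRF2 target genes, 15 were lower and 3 higher: Nqo1, a quinone reductase, fell by 0.93 ± 0.09, Txnrd1, thioredoxin reductase, fell by 0.84 ± 0.08, and Srxn1, sulfiredoxin, fell by 1.05 ± 0.11, though the gene's other probe set had the opposite sign. Hmox1, heme oxygenase, rose by 0.45 ± 0.10, and Gsta4, given above, was the largest rise of that list.

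Ribosome biogenesis fell, with 18 of 28 lower, against 26.2% of all genes, and 0 higher (median -0.36). Nhp2, of box H/ACA particles, had 10.85, 10.85, 10.84, 10.80 and 10.79 on day 14, against 11.65, 11.77, 11.74 and 11.70 on day 7 and fell by 0.89 ± 0.06, Fbl, fibrillarin, fell by 0.75 ± 0.06, and Nop58 fell by 0.59 ± 0.06. Lysosome and autophagy genes rose, with 20 of 35 higher, against 19.4% of all genes, and 1 lower (median 0.30). Lamp2, of the lysosomal membrane, had 11.85, 11.88, 11.79, 11.83 and 11.89 on day 14, against 11.19, 11.16, 10.98 and 11.05 on day 7 and rose by 0.75 ± 0.05, and Ctsa, a protective protein of lysosomal enzymes, rose by 0.71 ± 0.08. Hexa, a hexosaminidase, rose by 0.69 ± 0.08, Ctsl, cathepsin L, rose by 0.47 ± 0.05, and Ctsb, cathepsin B, had a change of 0.05 ± 0.06 (adjusted p = 0.55).

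Glycolysis and hypoxia genes had 12 of 29 higher and 7 lower, where 19.4% of all genes were higher and 26.2% lower. Eno2, an enolase, rose by 0.95 ± 0.15, Hif1a, the hypoxia factor, rose by 0.33 ± 0.06, and Pgk1, an abundant glycolytic kinase, had a change of -0.03 ± 0.04 (adjusted p = 0.59; its other probe set had the opposite sign). Txnip, which restrains glucose uptake, had 4.10, 4.05, 3.81, 4.40 and 4.06 on day 14, against 5.02, 5.29, 5.38 and 5.52 on day 7 and fell by 1.22 ± 0.15 to background, and its relative Arrdc4 fell by 1.08 ± 0.14. Of 24 immediate early genes, 6 were higher and 5 lower, near those shares: Fos rose by 1.34 ± 0.24, Egr1 rose by 0.60 ± 0.12, and Fosl1 fell by 1.69 ± 0.16, all transcription factors that respond quickly to stimulation. Fos had 5.81, 5.20, 4.38, 5.54 and 5.18 on day 14, against 4.26, 3.32, 4.33 and 3.64 on day 7, a wide spread on both days, and the days did not overlap. Of 29 chemokine, complement and innate immune genes, 8 were higher and 2 lower, among them C1s, a complement protease, which rose by 0.98 ± 0.13, B2m, the light chain of MHC class I, which rose by 0.39 ± 0.05, and Nfkbia, an NF-kappa-B inhibitor, which rose by 0.51 ± 0.11.

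Whether the change with time depended on folate was asked by testing the difference of the changes. Deficient medium was set against sufficient medium, which shares no array with it. Here 0 of 9093 genes passed (0%), with a smallest adjusted p of 0.0506 by limma, and with array weights 65 passed. Without adjustment, 905 genes (9.95%) had a limma p under 0.05, where 455 would be expected by chance. The 95% interval of the difference had a median half-width of 0.302. The counts in sufficient medium were also close, with 4057 genes past the threshold (44.6%) on their own, 1809 higher (19.9%) and 2248 lower (24.7%). The mitotic kinases, cyclins and regulators had a median change of -1.95 in deficient and -1.70 in sufficient medium. The motors, condensins and cytokinesis proteins had -1.75 and -1.48, the spindle genes -1.43 and -1.41, and the replication genes -1.13 and -1.17. The skeletal and cardiac muscle genes had 0.52 and 0.64, and the folate genes -0.36 and -0.31. An unadjusted limma p under 0.05 for the difference, in either direction, was seen in 9.95% of all genes. It was seen in 9 of 31 motors, 6 of 26 kinases, 5 of 29 spindle genes and 7 of 55 replication genes. A p that misses the threshold does not show that the changes were equal.

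Near the threshold lay Hecw2, a ubiquitin ligase, and Txnip, both chosen after their values were seen. Hecw2 had a change of -0.11 ± 0.15 in deficient and -1.21 ± 0.14 in sufficient medium, a difference of 1.10 ± 0.21, and Txnip one of -1.22 ± 0.15 and -0.15 ± 0.14, a difference of -1.07 ± 0.21. Both had an adjusted p of 0.0506. Cdc20 changed by -3.07 ± 0.14 in deficient and -2.23 ± 0.13 in sufficient medium (adjusted p of the difference = 0.12), Mgp by 3.19 ± 0.13 and 3.92 ± 0.13 (adjusted p = 0.18), and Mthfd1 by -0.80 ± 0.07 and -0.94 ± 0.07 (adjusted p = 0.63).

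**Figure D5:**
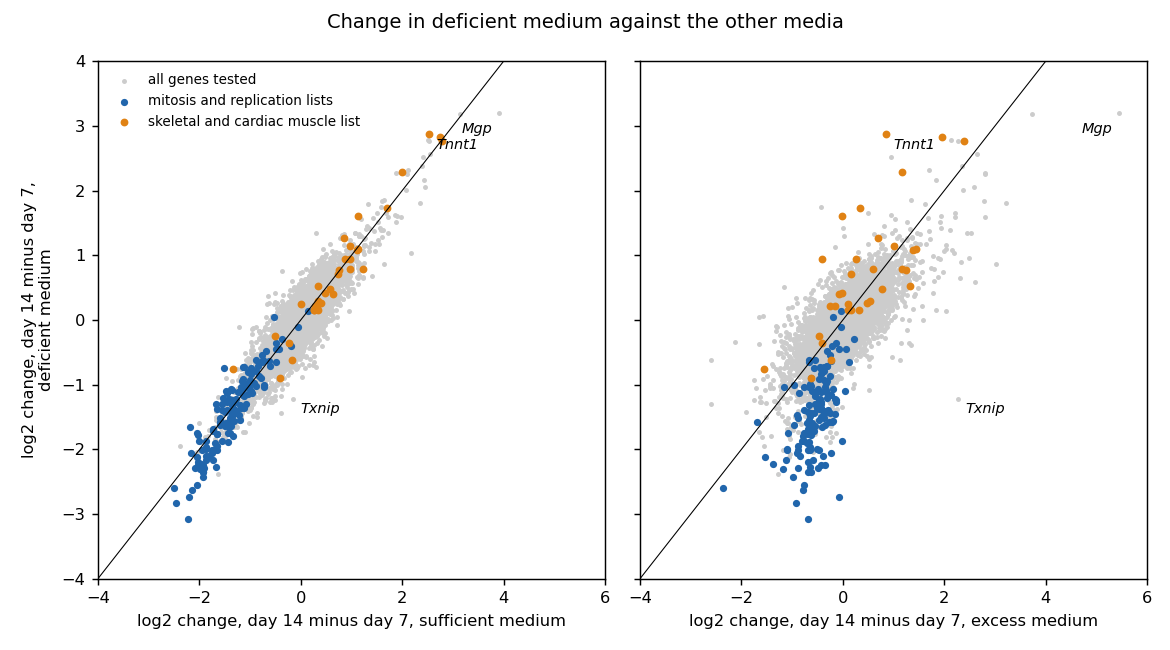
Change between day 14 and day 7 in deficient medium (y axis, log2) against the change in sufficient medium (left, x axis) and in excess medium (right, x axis); each point is 1 gene, blue for the mitosis and replication lists and orange for the skeletal and cardiac muscle list, and the line marks equal change. The blue points lie near the line on the left, where the median of the mitotic kinases is -1.95 in deficient and -1.70 in sufficient medium. On the right most of them lie below it, and that median is -1.95 in deficient and -0.65 in excess medium.

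Against excess medium, 1509 genes (16.6%) changed differently, 337 with a higher (3.71%) and 1172 with a lower difference (12.9%). This split depended on the scaling: centring each array on its median gave 694 higher and 651 lower, and quantile normalization 592 and 738. On their own, 4378 genes (48.1%) passed in excess medium. The lower differences took in most of the genes of division: 21 of 29 spindle genes, 21 of 26 mitotic kinases and cyclins, 28 of 31 motors and condensins and 38 of 55 replication genes fell more in deficient than in excess medium, and 0 of them fell less. Under both other scalings 20 of the spindle genes, 28 of the motors and condensins and 34 of the replication genes had a lower difference, with 20 of the mitotic kinases and cyclins by quantile normalization and 21 by centring, and 0 had a higher one. Kif20a changed by -2.73 ± 0.18 in deficient and -0.08 ± 0.18 in excess medium (adjusted p of the difference = 6.0e-10), and Cdc20 by -3.07 ± 0.14 and -0.69 ± 0.14 (adjusted p = 2.2e-11). All 5 excess day 14 arrays had a score above -0.8, at -0.47 to 0.26, and beta-actin 3' to 5' differences of 1.40 to 2.80, so no low-score fit exists for this difference. With the score as a covariate 2029 genes passed, and with the beta-actin difference as a covariate 1079.

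Outside cell division, the largest differences were of several kinds. Txnip changed by -1.22 ± 0.15 in deficient and by 2.27 ± 0.15 in excess medium, a difference of -3.49 ± 0.22 (adjusted p = 1.4e-14). Mgp rose by 3.19 in deficient medium and by more, 5.45 ± 0.13, in excess medium (adjusted p = 2.2e-11). Col6a3 changed by 0.87 ± 0.20 in deficient and 3.01 ± 0.20 in excess medium (adjusted p = 3.8e-07). Prnd, a prion-like protein, changed by 1.75 ± 0.10 in deficient and -0.43 ± 0.10 in excess medium, and Tnnt1 by 2.87 ± 0.16 and 0.85 ± 0.16. Trib3 changed by -0.33 ± 0.14 and -2.12 ± 0.14, F3 by 0.04 ± 0.11 and -1.66 ± 0.11, and Ifi27l2b by -0.62 ± 0.14 and -2.60 ± 0.14, so in these 3 the value of excess medium was the lower one. Of 38 tested members of the stress response list, 12 had a higher and 2 a lower difference, where 3.71% of all genes had a higher and 12.9% a lower one. Unlike those of the division lists, these counts were not repeated under the other scalings. Among the members with a higher difference was Ddit3, with 0.51 ± 0.11 in deficient and -1.16 ± 0.11 in excess medium.

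The day 14 values can be placed between days 7 and 21, though the changes of 14 against 7 and 21 against 14 share the day 14 arrays and all deficient day 21 arrays had scores of -0.21 to 0.15. Between days 21 and 14, 3530 genes (38.8%) passed. Mgp stood at 5.69 ± 0.23 on day 7, 8.88 ± 0.19 on day 14 and 11.21 ± 0.09 on day 21, S1pr1 at 6.76 ± 0.29, 9.94 ± 0.18 and 11.55 ± 0.07. Plk1 changed by -2.84 ± 0.11 at the earlier step and -0.27 ± 0.11 at the later one, and Cdc20 by -3.07 ± 0.14 and -0.34 ± 0.13. The mitotic kinase list had medians of -1.95 and -0.55, the replication list -1.13 and -0.44, and the skeletal and cardiac muscle list 0.52 and 0.28. Id2 and Atoh8 had their larger change later, with -2.39 ± 0.15 and -2.19 ± 0.11, and Txnip turned, with -1.22 ± 0.15 at the earlier step and 1.79 ± 0.14 at the later one.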

How the data were processed

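The authors deposited log2 values for 31099 probe sets and 43 arrays, made with GCRMA per the submitters' processing notes, which also name limma and give no version. GCRMA corrects background by probe sequence, normalizes arrays by quantiles and summarizes probes. Values lay between 0.84 and 15.01 and array medians between 3.66 and 3.72. Scanner files were not used here, and the number of arrays limits the precision.

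Gene symbols came from the annotation of the platform (20832 with 1 symbol, 436 with several, 9831 with no entry), and the Entrez identifier matched a RefSeq table of GRCr8 for 20764. Where a gene had several probe sets, the one of highest average across the 43 arrays stood for it. Of the genes that passed between the days, 1056 had another probe set above 4 in at least 4 arrays. In 221 of these 1056, another probe set had the opposite sign, whatever the size of its change. Of 14217 genes, 9093 had a log2 value above 4 in at least 4 arrays and were tested; 57 control probe sets were left out. 1 linear model of the 9 group means was fitted in limma 3.58.1 (R 4.3.3; 34 residual and 4.12 prior degrees of freedom), with two-sided tests and Benjamini-Hochberg adjustment over all 9093 genes (threshold 0.05), and was checked on simulated data. In that simulation the noise was independent between genes and few genes were changed. The check therefore does not cover the pattern shared by some arrays, or changes in as many genes as seen here.

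The members, the 39 gene lists and the tests were chosen with earlier results of these data known. The text names the 10 highest and 10 lowest changes that did not overlap and reached a level of 6, up to 4 members of each list per direction by smallest p, up to 2 abundant members that did not pass, and the 5 highest and lowest differences between media. The array score and its low-score fit (limit -0.8, 18 arrays) were added after the data were seen. No 2 arrays held identical values. Alternatives are given in the closing section. Python 3.11.15, pandas 2.3.3, numpy 2.4.6, scipy 1.17.1 and matplotlib 3.10.9 were used for tables and plots.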

Additional observations from a re-analysis of the deposited data

Results flagged for a closer look

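Arrays that lay far from the others of their day were looked for in each of the named genes on each day, and the gap to the next array, as a share of the group's range, passed Dixon's limit in 13 of 314 groups, where chance flags about 1 in 20. On day 14 the lowest array was at 5.48 for Cdkn2d, 9.34 for Ddit3 and 8.36 for Egr1, and the highest at 11.47 for Mylk, 2.85 for Col14a1 and 13.51 for Ctsl. On day 7 the lowest array was at 5.35 for Mgp, 11.90 for Myh1, 9.83 for Ltbp3, 13.73 for Fn1, 5.05 for Abca1 and 11.38 for Ctsa, and the highest at 10.09 for Hmox1. Leaving these arrays out 1 at a time lost no call among those of these genes that had passed.

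The change between day 14 and day 7 differed between deficient and excess medium in 1509 genes by the test of the difference itself in limma. The highest differences, deficient minus excess, were 2.18 for Prnd, 2.01 for Tnnt1, 1.98 for Ifi27l2b, 1.79 for Trib3 and 1.71 for F3. The lowest were -3.49 for Txnip, -2.65 for Kif20a, -2.39 for Cdc20, -2.25 for Mgp and -2.14 for Col6a3. The 5 excess day 14 arrays had scores of -0.47 to 0.26, and 3 of them had beta-actin 3' to 5' differences of 2.37 to 2.80; how much of the difference between media goes with these was examined only through the 2 covariates given above.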

How the results depend on the processing

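The count of 4143 genes stayed between 3419 (day 14 replicates 1 and 5 left out) and 4730 (array weights) under the alternatives run, and asking for a 2-fold change besides left 394; leaving out 1 array at a time gave 3658 to 4019. Only day 14 replicates 1 and 5 against day 7 gave 3843, the score as a covariate 4233 and the beta-actin difference as a covariate 4243. For deficient minus sufficient medium, 0 genes passed in the main fit. The filter on the 9 arrays gave 2, the mean of a gene's probe sets 2, quantile normalization 4, centring 4 and array weights 65. A variance trend gave 2, the score as a covariate 3, and a covariate marking title serials above 45 gave 1. Leaving out 1 array gave 0 to 6 (6 without deficient day 7 replicate 1). Hecw2 passed in 17 and Txnip in 12 of 37 settings, both picked out after their values were seen. For deficient minus excess, 1509 became 2626 with array weights and 167 with a 2-fold change besides, and 1176 to 1760 without 1 array. Whether the replicate numbers in the titles pair the samples could not be settled. Same-numbered arrays of day 14 and day 7 had deviations correlated at 0.147, -0.014, 0.085 and 0.119 for replicates 1, 2, 5 and 6. Day 14 replicates 1, 5 and 6 correlated best with their own number and replicate 2 did not. Differently numbered arrays had -0.170 to 0.136, and the main fit did not treat the samples as pairs. The replicate block gave 4060 genes, 0 for deficient minus sufficient and 1439 for deficient minus excess, and with only the compared groups in the fit 3832, 0 and 933. The beta-actin difference kept its direction and its threshold without any 1 array (-0.308 to -0.234), while that of Gapdh, -0.133, ran from -0.157 to -0.097 and lost its threshold in 7 of 9 such cases. Of 136 named genes that passed, 126 passed in every setting and 0 changed direction: Smtn lost its call in 6 settings, Eln in 7 (0.15 to 1.72), Tfrc in 4, Ncam1 in 2, and Myod1, Xirp1, Mrtfa, Fmod, Itga3 and Gmps in 1. Of 21 that did not pass, 11 did in some setting, most often Trib3 (9), Cdkn1b (7), Myh1 and Tagln (6 each). Of 2106 list counts, 156 moved by over 1.5 times. Precision is limited by the 5 and 4 arrays and, for levels near 4, by the background; the cause of these shifts was not tested.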

Other observations

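The 5 pathway lists not described above had median changes of -0.04 to 0.08, where 19.4% of all genes were higher and 26.2% lower on day 14. Of 55 genes of oxidative phosphorylation 5 were higher and 11 lower, among them Cyc1, of complex III, which fell by 0.43 ± 0.07, and Ndufa1, of complex I, which rose by 0.33 ± 0.07. Of 27 growth factors and receptors 9 were higher and 1 lower, with S1pr1 and Fgf1, a fibroblast growth factor that rose by 0.85 ± 0.09, among those higher. TGF-beta, YAP and Notch signalling had 3 of 19 higher and 3 lower: Tgfbr1, a TGF-beta receptor, rose by 0.37 ± 0.08, Axl, a receptor kinase, fell by 0.60 ± 0.08, and Ccn2, a YAP and TGF-beta target, had a change of -0.001 ± 0.04 at 14.48 ± 0.05 on day 14, against 14.48 ± 0.05 on day 7. Wnt signalling had 3 of 12 higher and 2 lower, with Lef1, a transcription factor of the pathway, which rose by 0.54 ± 0.10. Of 10 iron genes 0 were higher and 2 lower, and Tfrc, the transferrin receptor, fell by 0.32 ± 0.10, a call lost without day 7 replicate 2 (-0.24). It was also lost with the mean of its probe sets (-0.21) and by centring (-0.22).

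Markers of other cell types that were above background moved in both directions. Thy1, carried by fibroblasts and other stromal cells, had 10.49, 10.94, 10.75, 10.43 and 10.88 on day 14, against 9.98, 9.89, 9.95 and 10.06 on day 7 and rose by 0.72 ± 0.09, while Vim, vimentin, had a change of 0.01 ± 0.05 (adjusted p = 0.94). The keratins Krt8 and Krt7, usually read as epithelial, were present at 7.98 ± 0.11 on day 14, against 7.36 ± 0.13 on day 7 for Krt8 and at 11.04 ± 0.14 on day 14, against 11.66 ± 0.08 on day 7 for Krt7, so one rose by 0.62 ± 0.09 and the other fell by 0.62 ± 0.07. Of the other marker lists, fibroblasts had 1 of 4 tested members higher and 2 lower, endothelial cells 0 and 1 of 3, macrophages 0 and 0 of 1, epithelial cells 1 and 1 of 2, adipocytes 1 and 1 of 2, and neurons and glia 2 and 0 of 3, one of them Scg2. Over all genes 19.4% were higher and 26.2% lower, and lists with 1 to 4 tested members are too short to be told from these shares.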
